A study of Mus musculus with 16 samples.

Results

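Nppa, Nppb, Acta1 and Myh7 are 4 genes of the fetal cardiac programme, chosen by name from the 22180 genes that had at least 1 probe set with a single gene symbol on the array. Each of the 4 had exactly 1 probe set. Their RNA was read in myocardium from mice on a C57Bl/6J background with Affymetrix arrays, 1 array per heart and 4 hearts in each of 4 groups. Clock HFD mice were homozygous for the Clock delta 19 allele and ate a high-fat diet. Clock SC mice carried the same 2 copies of the allele and ate standard chow. WT HFD mice were wild type on the high-fat diet, and WT SC mice were wild type on standard chow. In all 16 mice the diet had lasted 24 weeks, the animals were 32 weeks old, and hearts were taken 7 hours after lights on and snap frozen, so a single time of day was sampled. The labels call the mutants transgenic and name no promoter or Cre that would limit the allele to the heart. The replicates were labelled biological replicates.

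The adult ventricle is known to switch off a set of genes that the embryonic heart uses and to switch some of them on again under pressure overload, stretch or failure. Nppa and Nppb encode the precursors of atrial and brain natriuretic peptide, hormones released on stretch that act through the receptor Npr1 and cyclic GMP to promote loss of salt and water and relax vessels. Myh7 encodes the slow beta myosin heavy chain, which in rodents is the fetal counterpart of the adult alpha chain Myh6. Acta1 encodes skeletal muscle alpha-actin, which the fetal heart uses beside the adult cardiac actin Actc1. The protein CLOCK pairs with ARNTL and binds the E-box CACGTG, and the delta 19 protein, which lacks a stretch of its activation domain, is known to act as a dominant negative.

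The bases just upstream of each start site are shown because the members are classic targets of a few cardiac factors and because CLOCK has a known recognition sequence. They are RefSeq sequences of build GRCm38.p6, 250 bases ending at the base before the start site, 5′ to 3′ on the gene's own strand. Capitals mark 4 motifs searched on both strands, whose matches did not overlap one another. They were CACGTG, then the core that GATA factors read, spelled GATA, then the M-CAT element that TEAD factors read, spelled CATTCC, and the CArG box read by SRF.
Nppa, chr4:148000472-148000721, plus strand: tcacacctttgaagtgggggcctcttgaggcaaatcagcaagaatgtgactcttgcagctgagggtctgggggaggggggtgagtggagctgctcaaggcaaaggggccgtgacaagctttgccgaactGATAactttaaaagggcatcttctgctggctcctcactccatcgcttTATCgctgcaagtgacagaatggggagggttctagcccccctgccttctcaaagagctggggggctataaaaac
Nppb, chr4:147985650-147985899, plus strand: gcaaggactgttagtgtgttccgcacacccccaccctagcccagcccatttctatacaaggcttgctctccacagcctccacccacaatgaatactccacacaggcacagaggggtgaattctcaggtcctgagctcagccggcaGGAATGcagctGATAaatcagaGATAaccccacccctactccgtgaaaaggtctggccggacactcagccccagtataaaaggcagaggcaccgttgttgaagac
Acta1, chr8:123894776-123895025, minus strand: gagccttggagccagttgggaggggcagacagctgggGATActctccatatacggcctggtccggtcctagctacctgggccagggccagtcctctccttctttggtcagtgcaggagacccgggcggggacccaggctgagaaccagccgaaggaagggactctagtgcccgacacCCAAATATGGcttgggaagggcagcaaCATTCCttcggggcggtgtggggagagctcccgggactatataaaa
Myh7 start site 1, chr14:54994550-54994799, minus strand: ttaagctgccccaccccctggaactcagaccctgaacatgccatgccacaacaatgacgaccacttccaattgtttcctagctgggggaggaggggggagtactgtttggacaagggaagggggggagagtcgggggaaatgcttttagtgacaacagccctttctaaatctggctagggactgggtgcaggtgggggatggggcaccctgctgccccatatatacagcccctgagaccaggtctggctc
Myh7 start site 2, chr14:54994627-54994876, minus strand: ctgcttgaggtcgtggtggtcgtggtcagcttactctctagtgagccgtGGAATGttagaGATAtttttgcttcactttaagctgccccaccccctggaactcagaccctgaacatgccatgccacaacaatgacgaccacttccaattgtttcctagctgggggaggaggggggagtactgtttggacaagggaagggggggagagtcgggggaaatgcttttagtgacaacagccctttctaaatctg

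None of these windows held CACGTG, which 6.02% of 32851 RefSeq windows of 250 bases held. GATA was found 2 times in the Nppa window, at -121 and -74 counted from the start site, and 2 times in the Nppb window, at -94 and -83. The Acta1 window held it at -213 and the window of the second Myh7 start site at -190. GATA is common and was held by 53.6% of all windows. The M-CAT letters occurred at -105 in Nppb, at -46 in Acta1 and at -201 in the second Myh7 window, and in 12.6% of all windows. Acta1 alone of the 4 genes held a CArG box, at -73, against 1.47% of all windows. These matches describe letters only and do not show that a factor was bound.

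The deposited values were taken as log2 numbers and are centred for each probe set on the median of the 16 arrays, so a value of 0 is the middle heart and a difference of 1 is a doubling if the base is 2 and the sign is positive for more RNA, neither of which the labels state. They hold no level, so neither the abundance of one gene against another nor the presence of a defining marker such as Myl2 in the tissue could be checked. The sign was read from known CLOCK targets: Dbp differed by -2.39 ± 0.19 (log2, SE) and Nr1d1 by -1.04 ± 0.08 between Clock and WT hearts over both diets, with limma adjusted p-values of 2.03e-06 and 9.74e-07. Arntl, which NR1D1 is known to repress, differed by 1.32 ± 0.18 with an adjusted p of 0.000482, and by 0.72 ± 0.26 on chow alone, where it did not pass (adjusted p = 0.309). The SD of the values over all probe sets was between 0.111 and 0.159 on each array. In whole-tissue RNA, fewer cells of a type and less RNA per cell cannot be told apart.

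One heart stood apart before any group was compared. The Clock SC replicate 4 heart had the lowest value of all 16 hearts for each of the 4 members, at -1.15 for Nppa, -1.07 for Nppb, -1.47 for Acta1 and -0.64 for Myh7. It also ranked lowest of 16 in the mean of the 10 ventricular cardiomyocyte markers, at -0.212, and in the mean of 18 other sarcomere genes, at -0.0747. The same heart ranked highest in the mean of the 10 endothelial markers, at 0.17, of the 7 adipocyte markers, at 0.103, and of the 5 lung markers, at 0.249. Its 12 atrial markers averaged -0.0309, the fourth lowest of 16. limma's array weights gave this heart 0.656, the smallest weight of the 16. The part of its tissue makeup in the members' values was not tested. A second heart, WT SC replicate 4, stood apart in clock genes: its Dbp value was 0.37 and its Arntl value 0.54, against 1.71 to 2.28 and -1.34 to -0.32 in the other WT SC hearts. Its Dbp value lay above those of all 8 Clock hearts, and so did its Arntl value. Without that heart the members' calls were the same, with Myh7 over both diets at -0.59 (adjusted p = 0.0429).

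The 4 members were among the most variable genes of these hearts. Their residual SD within groups was 0.536 for Nppa, 0.47 for Nppb, 0.513 for Acta1 and 0.323 for Myh7 on the log2 scale, against a median of 0.098 over all 22180 genes. Nppa ranked 18th, Acta1 23rd, Nppb 28th and Myh7 105th from the top. With this pooled spread, a difference had to be several times larger in these genes than in the typical gene to stand out. The spread was uneven between the groups. In Clock SC hearts, which include replicate 4, the SD was 0.93 for Nppa and 0.84 for Nppb. In the other groups it was 0.19 to 0.42 for Nppa and 0.19 to 0.27 for Nppb. Acta1 had its largest SD in WT HFD hearts, at 0.80.

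**Figure D1:**
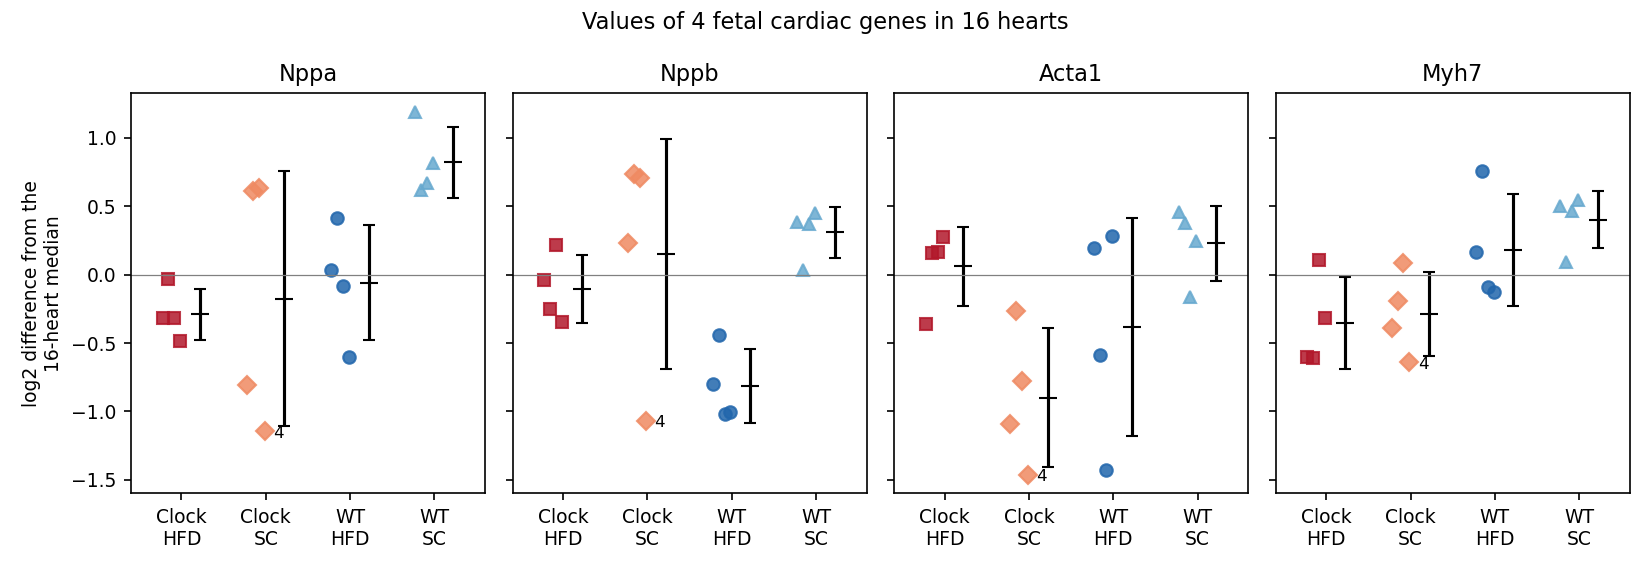
Each point is 1 heart, plotted as its log2 difference from the 16-heart median on the vertical axis, with groups of 4 hearts along the horizontal axis and the mean ± SD to the right of each group in black. Clock SC replicate 4 is marked 4 and is the lowest heart in each of the 4 panels, WT HFD hearts lie between -1.02 and -0.44 for Nppb, and WT SC hearts lie between 0.62 and 1.19 for Nppa.

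Myh7, the beta myosin heavy chain, was the 1 member that passed the test in any comparison: it fell in Clock hearts, by 0.61 ± 0.14 on the log2 scale (SE, 8 hearts against 8) when the genotypes were compared over both diets. Its centred values were -0.60, -0.61, 0.11 and -0.31 in Clock HFD hearts, against 0.17, 0.76, -0.09 and -0.13 in WT HFD hearts. On chow the values were -0.39, -0.19, 0.09 and -0.64 in Clock SC hearts, against 0.50, 0.10, 0.47 and 0.54 in WT SC hearts. The genotypes overlapped on the high-fat diet, with the Clock heart lower in 14 of the 16 pairs of hearts, and on chow every Clock heart lay below every WT heart, although the nearest 2 hearts were only 0.09 and 0.10. The means were -0.35 ± 0.34 in Clock HFD and 0.18 ± 0.41 in WT HFD, and -0.29 ± 0.31 in Clock SC and 0.40 ± 0.21 in WT SC (SD, n = 4 each).

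The averaged Myh7 difference had a 95% interval of -0.91 to -0.31, a fold of 1.53 and an adjusted p of 0.0215 by limma with Benjamini-Hochberg adjustment over all 22180 genes, a comparison in which 3.88% of all genes were called at an adjusted p under 0.05. Without Clock SC replicate 4 it was -0.55 with an adjusted p of 0.0364. Leaving out Clock HFD replicate 2 instead ended the call, at an adjusted p of 0.0504. Taken 1 diet at a time Myh7 did not pass: Clock minus WT was -0.53 ± 0.20 on the high-fat diet (adjusted p = 0.228 by limma) and -0.69 ± 0.20 on chow (adjusted p = 0.184). The difference between those 2 values was 0.15 ± 0.28 with an adjusted p of 0.999. Diet itself gave -0.07 ± 0.20 in Clock hearts (adjusted p = 0.974), -0.22 ± 0.20 in WT hearts (adjusted p = 0.783) and -0.15 ± 0.14 over both genotypes (adjusted p = 0.761). Without Clock SC replicate 4 the diet value in Clock hearts was -0.19. Ordered from the lowest mean, Myh7 ran from Clock HFD through Clock SC and WT HFD to WT SC, and each group overlapped the next.

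Myh6, the adult counterpart that is the next gene to Myh7 on chromosome 14, did not pass in any comparison. Its centred values averaged 0.01 ± 0.03 in Clock HFD and 0.00 ± 0.02 in WT HFD hearts, and -0.02 ± 0.05 in Clock SC and -0.03 ± 0.06 in WT SC hearts. Clock minus WT over both diets was 0.01 ± 0.03 (SE, adjusted p = 0.912), with a 95% interval of -0.05 to 0.07. Each of the myosin genes has a microRNA inside its annotated span, Mir208b in Myh7 and Mir208a in Myh6, and both mature sequences are shown because they share the seed, bases 2 to 8, here in capitals.
mmu-miR-208a-3p: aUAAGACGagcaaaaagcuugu
mmu-miR-208b-3p: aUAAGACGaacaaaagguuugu
The probe sets that list these hairpins gave Clock minus WT values of -0.02 ± 0.14 for Mir208a (adjusted p = 0.965) and 0.01 ± 0.03 for Mir208b (adjusted p = 0.95) over both diets. The interval was -0.31 to 0.26 for Mir208a and -0.05 to 0.06 for Mir208b, and whether these probe sets read the hairpin or its host transcript was not tested. The third myosin of this kind, Myh7b, fell on the high-fat diet over both genotypes by 0.22 ± 0.05 (adjusted p = 0.0328) and had a Clock minus WT value of -0.17 ± 0.05 (adjusted p = 0.0632).

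Beside the Myh7 difference, some ventricular cardiomyocyte markers were lower in Clock hearts: 3 of 10 fell over both diets, where 3.88% of all genes were called, Irx3 by 0.33 ± 0.04, Hey2 by 0.31 ± 0.07 and Gja1 by 0.19 ± 0.05, and none rose. The defining light chains Myl2 and Myl3 gave 0.02 and 0.09 and did not pass (adjusted p = 0.842 and 0.493). The mean of the list ranged over -0.161 to -0.0183 in Clock HFD, -0.212 to 0.0313 in Clock SC, -0.0735 to 0.0824 in WT HFD and -0.0287 to 0.204 in WT SC hearts. Of 10 fibroblast markers 4 rose in Clock hearts over both diets, where 3.88% of all genes were called (Col1a1, Lum, Gsn and Postn, by 0.27 to 0.30). The mean of that list ranged over -0.0793 to 0.261 in Clock HFD, -0.021 to 0.0955 in Clock SC, -0.165 to 0.144 in WT HFD and -0.242 to -0.0719 in WT SC hearts. Whether a shift in the makeup of the samples contributed to the Myh7 difference was not tested.

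Nppb, the brain natriuretic peptide gene, had its lowest mean in WT mice on the high-fat diet. Its centred values were -0.80, -0.44, -1.02 and -1.01 in WT HFD hearts, against 0.38, 0.04, 0.37 and 0.45 in WT SC hearts. They were -0.04, -0.25, 0.22 and -0.34 in Clock HFD hearts, against 0.23, 0.73, 0.71 and -1.07 in Clock SC hearts. The 4 WT HFD hearts lay below every WT SC heart and below every Clock HFD heart, while the Clock SC group held both the highest heart of the 16 and the lowest, replicate 4. From the lowest mean the order was WT HFD, Clock HFD, Clock SC and WT SC, and each neighbouring pair but the first overlapped.

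The high-fat diet difference of Nppb was -1.13 ± 0.29 in WT hearts, with a 95% interval of -1.74 to -0.52, which did not pass over all genes (adjusted p = 0.109 by limma). In Clock hearts the same difference was -0.25 ± 0.29 (adjusted p = 0.898). Clock minus WT was 0.71 ± 0.29 on the high-fat diet, with an interval of 0.10 to 1.32 and an adjusted p of 0.269, and on chow it was -0.16 ± 0.29 (adjusted p = 0.926). The interaction, the diet difference in Clock hearts minus that in WT hearts, was 0.87 ± 0.41 with an interval of 0.01 to 1.74 and an adjusted p of 0.982. Over both diets Clock minus WT was 0.28 ± 0.20 (adjusted p = 0.561). An exact two-sided permutation test gave 0.0286 for the WT diet difference and for Clock against WT on the high-fat diet, the smallest p that 4 hearts against 4 allow, and 0.0914 after adjustment over the 16 such tests of the members.

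Nppb was not called in any comparison of the full set, and leaving out Clock SC replicate 4 changed that. Each heart was left out in turn, but this heart had been singled out by its values, with the lowest Nppb value of all hearts. Removing the lowest heart by itself raises the Clock SC mean and narrows the pooled spread. The adjusted p-values without it therefore describe how far the results depend on that heart and are not a separate test. Without that heart the WT diet difference had the same value, since it does not use that heart other than through the pooled spread, and had an adjusted p of 0.00699 by limma, and Clock against WT on the high-fat diet had 0.0207. The diet difference over both genotypes, -0.69 ± 0.20 with an adjusted p of 0.109 in the full set, was -0.89 with an adjusted p of 0.00157 without it. Clock minus WT on chow changed sign without it, to 0.25 with an adjusted p of 0.643, and over both diets it was 0.48 with an adjusted p of 0.0215. The diet difference in Clock hearts was -0.66 (adjusted p = 0.194) and the interaction 0.47 (adjusted p = 0.935) without that heart. A fit on the 8 WT arrays alone gave the WT diet difference an adjusted p of 0.0285, and a fit on the 8 high-fat arrays alone gave Clock against WT 0.0389.

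Endothelial markers and immediate early genes were set beside Nppb. The mean of the 10 endothelial and endocardial markers was -0.228 to -0.123 in WT HFD hearts, below the range of each other group, which was -0.0016 to 0.137 in Clock HFD, 0.00516 to 0.17 in Clock SC and -0.0361 to 0.0169 in WT SC hearts. Of these markers Cldn5, a tight junction protein, fell on the high-fat diet in WT hearts by 0.81 ± 0.17, and Cldn5 and Esam were higher in Clock than in WT hearts on that diet, by 1.21 ± 0.17 and 0.39 ± 0.07. No other marker of the list was called there, against 0.352% and 1.9% of all genes. For diet in WT hearts 8 of the 10 were below 0, with a median of -0.09. Between the genotypes on the high-fat diet 7 were above 0 and 3 below, with a median of 0.185. The Cldn5 differences were thus far larger than the list medians. The 20 immediate early genes, which respond within minutes to handling of tissue, had list means of -0.545 to 0.4 in Clock HFD, -0.0945 to 0.32 in Clock SC, -0.755 to 0.0454 in WT HFD and -0.125 to 0.178 in WT SC hearts. For diet in WT hearts 18 of these 20 genes were below 0, with a median of -0.32 and a lowest value of -1.99. An unadjusted p under 0.05 was reached by 8, and by 10.7% of all genes. Egr2 fell by 0.49 ± 0.09 as the 1 that was called, against 0.352% of all genes. Between the genotypes on that diet 19 of 20 were above 0, with a median of 0.35. Egr2 rose in Clock hearts by 0.47 ± 0.09, and Ier3, the 1 below 0, fell by 0.64 ± 0.11. Their part in the Nppb values was not tested.

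Nppa, the atrial natriuretic peptide gene and the neighbour of Nppb on chromosome 4, had its highest mean in WT mice on chow. Its centred values were 0.04, 0.41, -0.08 and -0.60 in WT HFD hearts, against 1.19, 0.62, 0.67 and 0.82 in WT SC hearts, and every WT SC heart exceeded every WT HFD heart. In Clock hearts they were -0.32, -0.04, -0.32 and -0.49 on the high-fat diet, against -0.81, 0.61, 0.64 and -1.15 on chow. The Clock SC hearts split into 2 near the WT SC range and 2 below every other heart, and 15 of the 16 pairs of a Clock SC and a WT SC heart had the Clock heart lower. From the lowest mean the order was Clock HFD, Clock SC, WT HFD and WT SC, and only the last pair did not overlap.

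Nppa gave -0.88 ± 0.33 for the high-fat diet in WT hearts (95% interval -1.58 to -0.19, adjusted p = 0.304 by limma) and -0.11 ± 0.33 in Clock hearts (adjusted p = 0.974). Clock minus WT was -1.0 ± 0.33 on chow (interval -1.70 to -0.30, adjusted p = 0.253) and -0.23 ± 0.33 on the high-fat diet (adjusted p = 0.843). The exact two-sided permutation p was 0.0286 for the WT diet difference and 0.0571 for the genotypes on chow, or 0.0914 and 0.131 adjusted over the 16 tests. Without Clock SC replicate 4 the chow difference was -0.68 with an adjusted p of 0.398. Averaged over the diets the genotype difference was -0.62 ± 0.23 (adjusted p = 0.175), and averaged over the genotypes the diet difference was -0.50 ± 0.23 (adjusted p = 0.372). The interaction was 0.77 ± 0.46 (adjusted p = 0.982). Without Clock SC replicate 4 the diet difference in Clock hearts was -0.44 (adjusted p = 0.858) and the interaction 0.45 (adjusted p = 0.984).

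Nppa is far more abundant in atrial than in ventricular muscle, so atrial markers were set beside it. Of 12 atrial cardiomyocyte markers 0 were called by limma in the 4 comparisons within a diet or a genotype, where 0.0902% to 1.9% of all genes were called. Over both diets 1 was higher in Clock hearts (Pam, by 0.23 ± 0.06), against 3.88% of all genes called. In that comparison 4 of the 12 were above 0 and 8 below, with a median of -0.03. The list mean was -0.0514 to 0.0181 in Clock HFD, -0.0309 to 0.0341 in Clock SC, 0.000828 to 0.0287 in WT HFD and -0.0334 to 0.0125 in WT SC hearts. The part of atrial tissue in the Nppa values was not tested.

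Acta1, the skeletal alpha-actin gene, had its lowest mean in Clock mice on chow. Its centred values were -1.09, -0.26, -0.78 and -1.47 in Clock SC hearts, against 0.46, 0.38, -0.16 and 0.24 in WT SC hearts. With the high-fat diet they were -0.36, 0.16, 0.17 and 0.27 in Clock HFD hearts, against 0.19, -0.59, -1.43 and 0.28 in WT HFD hearts. On chow the genotypes did not overlap. They did on the high-fat diet, where the WT HFD group held 2 hearts within the WT SC range and 2 below it. From the lowest mean the order was Clock SC, WT HFD, Clock HFD and WT SC, with each pair of neighbours overlapping.

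The Acta1 difference between Clock and WT hearts was -1.13 ± 0.31 on chow (95% interval -1.80 to -0.46), with an adjusted p of 0.161 by limma, and 0.44 ± 0.31 on the high-fat diet (adjusted p = 0.6). The diet differences also had opposite signs, 0.96 ± 0.31 in Clock hearts (adjusted p = 0.351) and -0.61 ± 0.31 in WT hearts (adjusted p = 0.51). The interaction was 1.57 ± 0.44 with an interval of 0.63 to 2.52, which ranked 67th of all genes by p and did not pass (adjusted p = 0.76). The exact two-sided permutation test gave 0.0286 for Clock against WT on chow and 0.0571 for diet in Clock hearts, or 0.0914 and 0.131 over the 16 tests. Without Clock SC replicate 4 the chow difference was -0.94 (adjusted p = 0.263) and the interaction 1.39 (adjusted p = 0.791). Over both diets the genotype difference was -0.34 ± 0.22 (adjusted p = 0.493), and over both genotypes the diet difference was 0.17 ± 0.22 (adjusted p = 0.835), or 0.08 without that heart.

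Actc1, the adult cardiac actin, did not pass in any comparison: the high-fat diet gave -0.11 ± 0.04 in WT hearts (adjusted p = 0.29) and -0.03 ± 0.04 in Clock hearts (adjusted p = 0.905), and Clock minus WT over both diets was 0.03 ± 0.03 (adjusted p = 0.653). Acta2, the smooth muscle actin, had Clock minus WT values of -0.38 on the high-fat diet and -0.60 ± 0.21 on chow (adjusted p = 0.277). Acta1 is also the main actin of skeletal muscle, so 15 other skeletal fibre genes were set beside it. Over both diets 2 of the 15 were higher in Clock hearts, Casq1 by 0.43 ± 0.09 and Mybpc2 by 0.30 ± 0.07. In that comparison 3.88% of all genes were called, and 7 of the 15 were above 0 and 8 below, with a median of -0.01. For diet over both genotypes 1 of the 15 was called, Myl1, higher on the high-fat diet by 0.27 ± 0.05, against 1.54% of all genes. In that diet comparison 4 of the 15 were above 0 and 11 below. The mean of the 15 genes was 0.00616 to 0.0999 in Clock HFD, -0.0129 to 0.0691 in Clock SC, -0.0651 to 0.0216 in WT HFD and -0.0235 to 0.0269 in WT SC hearts. The part of skeletal muscle in the Acta1 values was not tested.

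**Figure D2:**
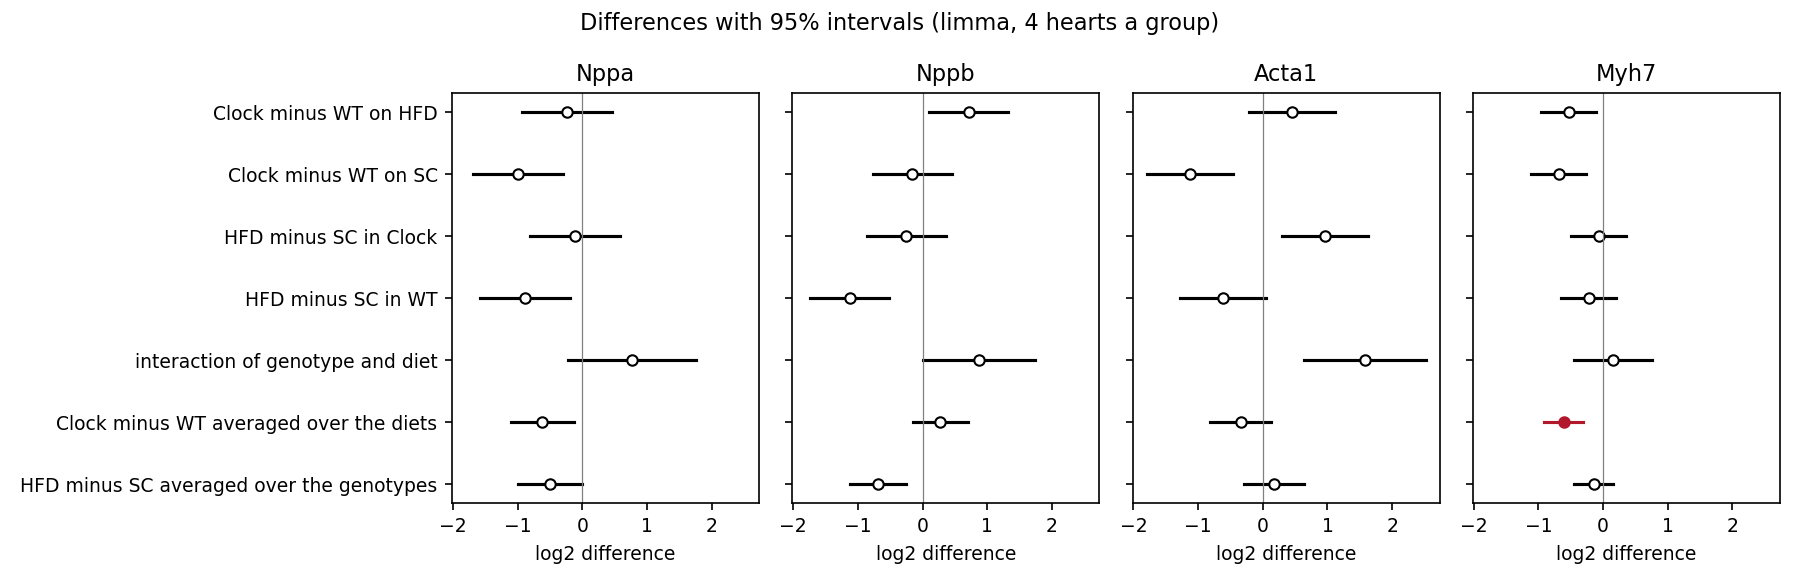
Points give the log2 difference of each member in 7 comparisons from the limma fit on 16 hearts, with 95% intervals as bars, and a filled red point marks an adjusted p under 0.05. Myh7 has the only filled point, at -0.61 for Clock minus WT over both diets, while the Acta1 interaction lies at 1.57 with an open point.

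Counted over the 4 members, limma called 0 of 4 for Clock against WT on the high-fat diet, where 1.9% of all genes were called. An unadjusted p under 0.05 was reached by 2 members, and by 13.5% of all genes. On chow it called 0 of 4 against 0.491% of all genes, with 3 members and 9.77% of all genes at an unadjusted p under 0.05 and all 4 members below 0. For diet it called 0 of 4 in Clock hearts, against 0.0902% of all genes, with 1 member and 8.42% of all genes at an unadjusted p under 0.05. In WT hearts diet called 0 of 4, against 0.352%, with 2 members and 10.7% of all genes at an unadjusted p under 0.05. For the interaction 0 of 4 and 0% of all genes were called, while 2 members and 1122 genes, 5.06% of all, had an unadjusted p under 0.05. Over both diets the genotype comparison called 1 of 4, against 3.88% of all genes, with 2 members and 16.5% of all genes at an unadjusted p under 0.05. Over both genotypes the diet comparison called 0 of 4, against 1.54% of all genes, with 2 members and 13.2% of all genes at an unadjusted p under 0.05. The median member difference was 0.11 for Clock against WT on the high-fat diet and -0.84 on chow, -0.09 for diet in Clock and -0.75 in WT hearts, where the median over all genes was within 0.01 of 0. Comparisons that use the same group share its 4 arrays, and in WT SC hearts, used by both the chow and the WT diet comparison, 3 of 4 had all members above 0.

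Groups that did not overlap were counted in the same way. Under the high-fat diet 1 member, Nppb, was higher in every Clock than in every WT heart, as were 5.09% of all genes. On chow 2 members, Acta1 and Myh7, were lower in every Clock than in every WT heart, against 2.38% of all genes. In WT mice 2 members, Nppa and Nppb, were lower in every HFD than in every SC heart, against 2.5% of all genes. No member was lower in every Clock heart on the high-fat diet, higher in every Clock heart on chow or higher in every HFD heart of WT mice. In Clock mice no member separated the diets in either direction. Shares of all genes are given only for directions in which a member had qualified, so they were matched to what was already seen. With 4 members these counts are small, and the genes were chosen by name with earlier results of these data known.

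The members varied together in part across hearts. Over the 16 hearts Nppa and Myh7 correlated at a Pearson r of 0.73 (permutation p = 0.00151, adjusted over 12 correlations 0.00906) and a Spearman rho of 0.709 (permutation p = 0.00269, adjusted 0.0161), and r was 0.627 without the 2 hearts farthest from the Nppa median. Nppa and Nppb gave 0.62 (permutation p = 0.0118, adjusted 0.0353) and 0.644 (permutation p = 0.00891, adjusted 0.0352), with 0.496 without those 2 hearts. The hearts fall in 4 groups, so the deviations from group means were correlated too, with hearts permuted within their groups. In those deviations Nppa and Nppb gave r = 0.794 (permutation p = 0.00431, adjusted 0.0172) and rho = 0.668 (permutation p = 0.0117, adjusted 0.0352), and Nppb and Myh7 gave r = 0.708 (permutation p = 0.00066, adjusted 0.00792) and rho = 0.838 (permutation p = 0.00065, adjusted 0.0078). Without the 2 farthest hearts these r values were 0.617 and 0.839. Over the 16 hearts without removal of group means, Nppb and Myh7 gave r = 0.287 (permutation p = 0.276, adjusted 0.369) and rho = 0.297 (permutation p = 0.262, adjusted 0.393). For Nppa and Myh7 the within-group r was 0.599 (permutation p = 0.0214, adjusted 0.0513). Acta1 correlated with none of the others at an adjusted p under 0.05, and its within-group r values were 0.302 with Nppa, 0.352 with Nppb and 0.185 with Myh7.

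**Figure D3:**
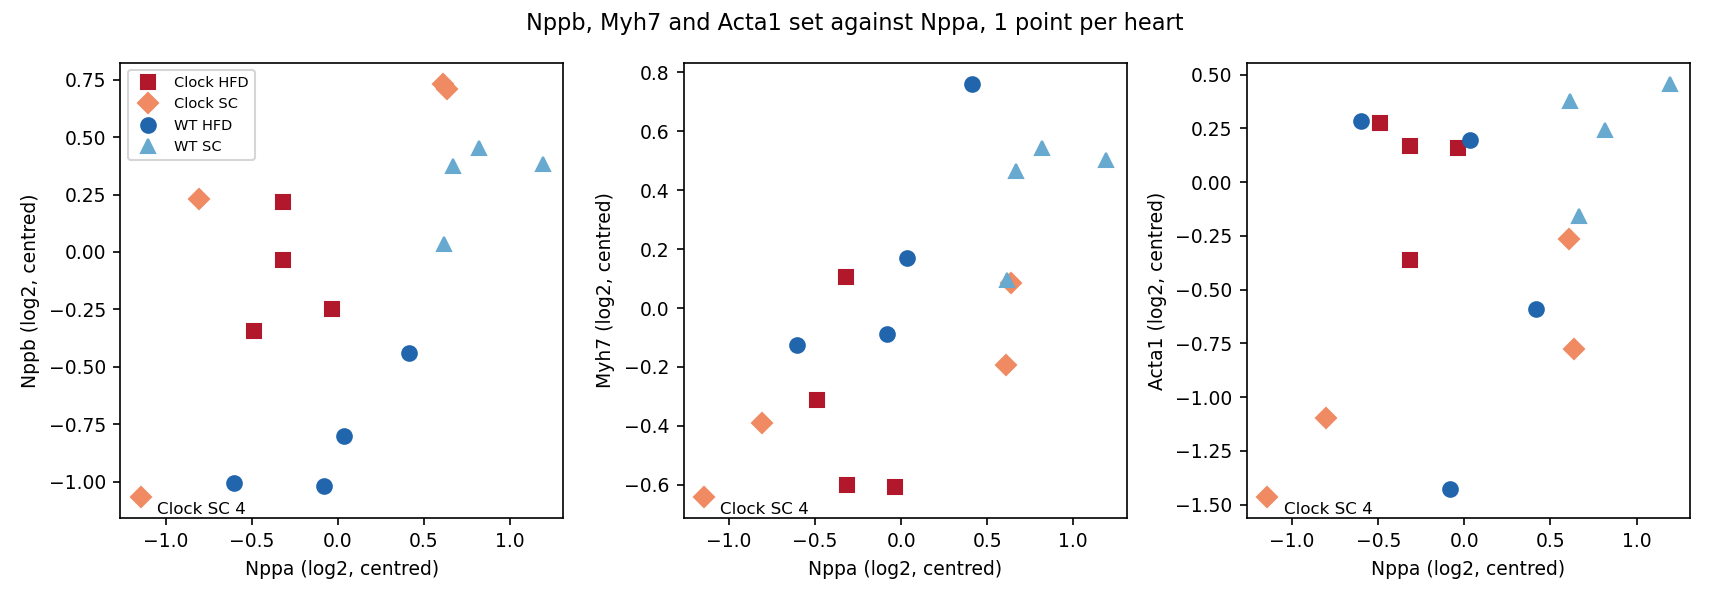
Each point is 1 of the 16 hearts, with the centred log2 value of Nppa on the horizontal axis and that of Nppb, Myh7 or Acta1 on the vertical axis. The Pearson r is 0.62 for Nppb, 0.73 for Myh7 and 0.424 for Acta1, and the Clock SC replicate 4 heart sits at the lower left of each panel.

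The genes most like each member were ranked by Pearson r over 19240 genes, first over the 16 hearts and then in deviations from group means, as a description. Over the 16 hearts Nppa was most like Gnb3 (0.861), Nrg1 (0.847), Tfb1m (0.836), Plcd3 (0.83) and Tnnc1 (0.822), of which Nrg1 encodes the growth factor neuregulin and Tnnc1 cardiac troponin C. Nppb was most like Hspb1 (0.849), a small heat shock protein, followed by Prnd (0.843), Tagln2 (0.838), Ppfibp2 (0.836) and B4galt3 (0.836). Acta1 was most like Defb23 (0.824), Stra6l (0.8), Rabepk (0.789), Mcm3 (0.776) and Atxn10 (0.759). Myh7 was most like Cth (0.861), Ankrd1 (0.839), Idh2 (0.824), Usp22 (0.817) and Kcnk7 (0.811), of which Ankrd1 is a stretch-responsive titin-binding protein and Idh2 a mitochondrial isocitrate dehydrogenase.

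In deviations from group means the lists were other genes. Nppa was nearest to Emc6 (0.87), Scgb1c1 (0.86), Ppp1r3c (0.859), Paip2b (0.859) and Prpf38a (0.837), and Nppb to Zcchc10 (0.905), Abhd8 (0.897), Prrx1 (0.88), Paip2b (0.879) and Phyh (0.869). Acta1 was nearest to Arap1 (0.887), Eif1ax (0.873), Tril (0.855), Uckl1 (0.843) and H2ax (0.843), and Myh7 to Pik3cb (0.897), Mob1a (0.884), Sncaip (0.874), Zfp715 (0.871) and Cabs1 (0.853). Paip2b stood in the lists of both natriuretic peptide genes. Ranking by Spearman's rho kept between 1 and 3 of each 5 names, so most names in these lists depend on the measure.

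The machinery that makes, senses and removes natriuretic peptides changed in part between the genotypes. Over both diets limma called 5 of 17 such genes higher and 1 lower in Clock hearts, against 3.88% of all genes called in either direction. The 1 that fell was Mme, the peptidase neprilysin that degrades natriuretic peptides, which differed by -0.77 ± 0.08 (adjusted p = 1.9e-05). Its centred mean was -0.22 ± 0.13 in Clock HFD and 0.67 ± 0.18 in WT HFD hearts, and -0.40 ± 0.21 in Clock SC and 0.25 ± 0.14 in WT SC hearts (SD, n = 4 each). Mme passed on each diet alone, at -0.89 ± 0.11 on the high-fat diet (adjusted p = 0.000308) and -0.66 ± 0.11 on chow (adjusted p = 0.0101).

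Among those that rose were 2 genes downstream of the receptor: Prkg1, the cyclic GMP-dependent kinase, by 0.45 ± 0.06 (adjusted p = 0.000376), and Pde2a, a phosphodiesterase that cyclic GMP stimulates, by 0.43 ± 0.06 (adjusted p = 0.000743). Prkg1 averaged 0.35 ± 0.11 in Clock HFD and -0.08 ± 0.09 in WT HFD hearts, and 0.15 ± 0.12 in Clock SC and -0.33 ± 0.18 in WT SC hearts. The other 3 were Furin (0.18 ± 0.04), a convertase that cleaves the Nppb precursor, Pcsk6 (0.23 ± 0.06), a convertase that activates corin, and Pam (0.23 ± 0.06), a peptide-amidating enzyme abundant in atrial granules. Corin, the protease that cleaves the Nppa precursor, gave -0.12 ± 0.05 (adjusted p = 0.272), the guanylyl cyclase receptor Npr1 -0.05 ± 0.05 (adjusted p = 0.709) and the clearance receptor Npr3 -0.07 ± 0.07 (adjusted p = 0.659). With the high-fat diet alone 4 of the 17 were called (Furin, Prkg1 and Pde2a higher, Mme lower) and on chow 2 (Prkg1 higher, Mme lower). The shares of all genes called were 1.9% and 0.491%. For diet limma called 0 of 17 within either genotype, against 0.0902% of all genes in Clock and 0.352% in WT hearts. An unadjusted p under 0.05 was reached by 3 of the 17 in Clock hearts, against 8.42% of all genes, and by 2 in WT hearts, against 10.7%. The nearest in Clock hearts were Npr3 (0.26 ± 0.09) and Ostn, which encodes a ligand of the clearance receptor (0.20 ± 0.08), and in WT hearts Mme (0.41 ± 0.11) and Prkg1 (0.25 ± 0.09). Over both genotypes Mme gave 0.30 ± 0.08 (adjusted p = 0.0618), Prkg1 0.23 ± 0.06 (adjusted p = 0.0741) and Npr3 0.20 ± 0.07 (adjusted p = 0.148).

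Of 18 sarcomere genes that are not members, 0 were called by limma in any genotype comparison, in which 0.491% to 3.88% of all genes were called. An unadjusted p under 0.05 was reached by 4 on the high-fat diet, 3 on chow and 6 over both diets, against 13.5%, 9.77% and 16.5% of all genes. The nearest were Myh7b (-0.18 ± 0.07) and the slow skeletal troponin Tnnt1 (-0.24 ± 0.09) on the high-fat diet, Acta2 and Tnnc1, cardiac troponin C (-0.18 ± 0.08), on chow, and Myh7b and Acta2 (-0.49 ± 0.14, adjusted p = 0.0741) over both diets. For diet 0 of 18 were called within a genotype, against 0.0902% of all genes in Clock and 0.352% in WT hearts. An unadjusted p under 0.05 was reached by 1 of the 18 in Clock hearts, against 8.42% of all genes, and by 4 in WT hearts, against 10.7%. Myh7b, given above, was the 1 called over both genotypes, where 1.54% of all genes were called. In Clock hearts Myh7b (-0.23 ± 0.07) and the slow troponin Tnni1 (-0.12 ± 0.08) were nearest to passing, and in WT hearts Tnnc1 (-0.27 ± 0.08, adjusted p = 0.141) and Myh7b (-0.21 ± 0.07).

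Of 34 transcriptional regulators known for control of these genes, limma called 3 higher and 2 lower in Clock hearts over both diets, against 3.88% of all genes called. Hdac4, a histone deacetylase that restrains MEF2, fell by 0.49 ± 0.08 (adjusted p = 0.00142), and Mef2a, a MEF2 factor, fell by 0.13 ± 0.03 (adjusted p = 0.0317). Those that rose were Srf, the factor that reads the CArG box, by 0.18 ± 0.04, the thyroid hormone receptor Thra by 0.15 ± 0.03 and the lipid-sensing receptor Ppara by 0.24 ± 0.05. Hdac4 (-0.69 ± 0.11) and Mef2a (-0.19 ± 0.04) also passed on the high-fat diet alone, where 1.9% of all genes were called. On chow 0 of 34 passed, against 0.491% of all genes. An unadjusted p under 0.05 was reached there by 5 of the 34, against 9.77% of all genes. Of these 5, Ppara (0.29 ± 0.08) and the chromatin remodeller Smarca4 (0.19 ± 0.06) were nearest. For diet limma called 0 of 34 within either genotype, against 0.0902% of all genes in Clock and 0.352% in WT hearts. An unadjusted p under 0.05 was reached by 5 of the 34 in Clock hearts, against 8.42% of all genes, and by 9 in WT hearts, against 10.7%. Srf fell over both genotypes, by 0.20 ± 0.04 (adjusted p = 0.0258), where 1.54% of all genes were called. Nearest to passing were the SRF partner Myocd (-0.27 ± 0.07) and Mef2a (-0.11 ± 0.04) in Clock hearts, and Hdac4 (0.48 ± 0.11, adjusted p = 0.0743) and Srf (-0.25 ± 0.06, adjusted p = 0.0859) in WT hearts.

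Other fetal and stretch-responsive genes were mostly higher in Clock hearts where they were called. Of 19, limma called 7 higher and 1 lower in Clock hearts over both diets, against 3.88% of all genes called. Rcan1, a calcineurin inhibitor that calcineurin signalling induces, rose by 0.89 ± 0.10 (adjusted p = 8.73e-05), and Ankrd23, a stretch-responsive titin-binding protein, rose by 0.87 ± 0.09 (adjusted p = 4.42e-05). Both passed on each diet alone, at 1.08 and 1.04 on the high-fat diet and 0.70 and 0.71 on chow. The glycolytic enzymes Pfkp (0.51 ± 0.07) and Hk1 (0.36 ± 0.05), the nucleotide kinase Uck2 (0.25 ± 0.04), the filamin Flnc (0.25 ± 0.05) and the matrix protein Postn (0.28 ± 0.07) rose as well.

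The 1 that fell was Ankrd1, a relative of Ankrd23 and second in likeness to Myh7 above, by 0.77 ± 0.16 (adjusted p = 0.00981). It averaged -0.42 ± 0.26 in Clock HFD and 0.26 ± 0.25 in WT HFD hearts, and -0.48 ± 0.60 in Clock SC and 0.39 ± 0.20 in WT SC hearts. Like the members, Ankrd1 was low in Clock SC replicate 4, at -1.31. With the high-fat diet alone 6 of the 19 were called, all higher, and on chow 2, against 1.9% and 0.491% of all genes. For diet 0 of 19 were called within a genotype, against 0.0902% of all genes in Clock and 0.352% in WT hearts. An unadjusted p under 0.05 was reached by 4 of the 19 in each genotype, against 8.42% of all genes in Clock and 10.7% in WT hearts. Nearest were Postn (0.34 ± 0.10) and Uck2 (0.15 ± 0.06) in Clock hearts, and Rcan1 (-0.62 ± 0.14, adjusted p = 0.0774) and Postn (0.33 ± 0.10) in WT hearts. Over both genotypes Postn rose by 0.34 ± 0.07 and Rcan1 fell by 0.43 ± 0.10, where 1.54% of all genes were called.

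Of 18 genes of hypertrophic signalling, limma called 1 over both diets, against 3.88% of all genes, the G protein subunit Gnaq, higher by 0.12 ± 0.03 in Clock hearts (adjusted p = 0.0454). On either diet alone 0 of 18 passed, against 1.9% of all genes on the high-fat diet and 0.491% on chow. An unadjusted p under 0.05 was reached by 2 of the 18 on the high-fat diet, against 13.5% of all genes, and by 3 on chow, against 9.77%. Nearest were the growth kinase Mtor (0.24 ± 0.09) and the G protein subunit Gna11 (0.20 ± 0.09) on the high-fat diet, and the angiotensin receptor Agtr1a (-0.30 ± 0.08, adjusted p = 0.161) and Gnaq (0.16 ± 0.04) on chow. Within a genotype diet called 0 of 18, against 0.0902% of all genes in Clock and 0.352% in WT hearts. An unadjusted p under 0.05 was reached by 2 of the 18 in Clock hearts, against 8.42% of all genes, and by 1 in WT hearts, against 10.7%. Endothelin, Edn1, (-0.48 ± 0.18) and Mtor (0.23 ± 0.09) were nearest in Clock hearts, and Agtr1a (-0.31 ± 0.08, adjusted p = 0.126) and the adrenergic receptor Adra1b (0.19 ± 0.10) in WT hearts. Agtr1a gave -0.23 ± 0.06 (adjusted p = 0.0651) and Edn1 -0.34 ± 0.12 for diet over both genotypes.

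For the interaction limma called 0 genes in each of the 5 lists and 0% of all genes. An unadjusted p under 0.05 was reached by 4 of the 34 regulators, by none of the other lists and by 5.06% of all genes. Hdac4 (-0.39 ± 0.15) and Myocd (-0.23 ± 0.10) came nearest among the regulators, each with an adjusted p above 0.9. The nearest in the other lists were Ide and Furin, Tnnc1 and Actc1, Flnc and Pfkp, and Adra1b and Mtor, with adjusted p-values of 0.982.

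**Figure D4:**
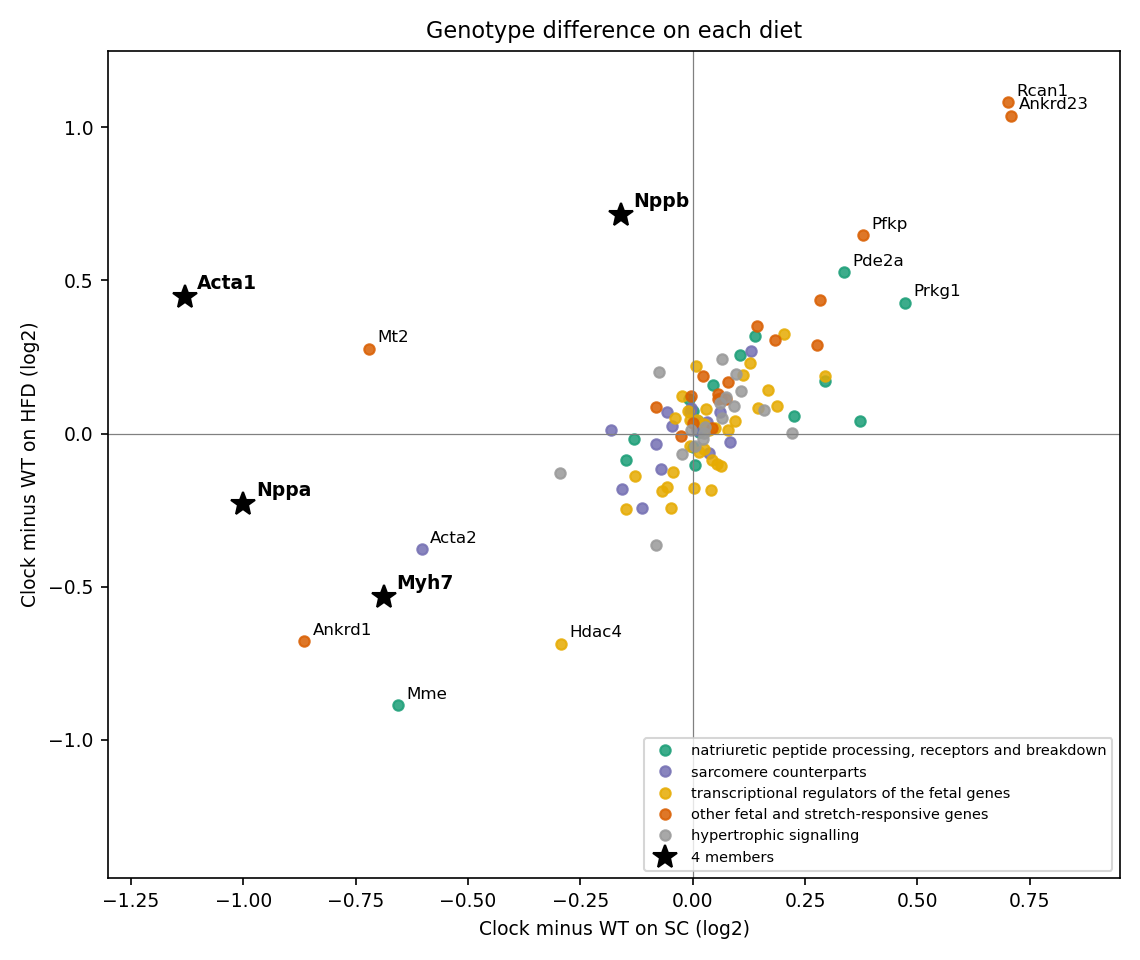
Each point is 1 gene, with its log2 difference between Clock and WT hearts on chow on the horizontal axis and on the high-fat diet on the vertical axis. Stars mark the 4 members and colours the 5 gene lists. Myh7 and Nppa lie below 0 on both axes, as do Ankrd1 and Mme. Acta1 and Nppb lie above 0 on the high-fat axis and below 0 on the chow axis, and Rcan1 and Ankrd23 are at the upper right.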

How the data were processed

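RNA from the myocardium of 16 mice, 500 ng each, was labelled with biotin and hybridised to 1 array per mouse, per the labels' protocols. The values the authors deposited for 34351 probe sets are logarithms, each centred on the probe set's median over the 16 arrays. Their base, sign, background correction and normalization were not given in the sources, and the deposited values were taken as log2. Probe sets were named through GEO's platform annotation: 23521 list 1 symbol, 1814 several and 9016 none. Those with 1 symbol were averaged per gene, giving 22180 genes, of which 1082 had several probe sets. Depth does not apply to arrays, and their number limits the precision.

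A 4-group model was fitted to all genes with limma 3.58.1 (R 4.3.3; lmFit and eBayes, 12 residual degrees of freedom), with 7 comparisons and Benjamini-Hochberg adjustment over all genes, called at an adjusted p under 0.05. Single members were also tested by exact permutation in scipy 1.17.1, and correlations by 100000 permutations. The members, the 5 gene lists and the 13 marker lists were chosen with earlier results of these data known; 228 list entries were measured and 15 did not match. Named were the members, Myh6, Actc1, Corin, Npr1, Npr3, Dbp, Arntl, Nr1d1, up to 6 passing genes of a list per comparison or else those with the smallest p, and the 5 genes most like each member; any further gene was picked with its values known. No scan date or slide was given, so no batch could be examined.

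Alternatives were the treatment of probe sets, trended and robust eBayes, array weights, repeated quantile normalization, fits restricted to the 8 hearts of a comparison, the replicate number as a block, and each heart removed once.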

Additional observations from a re-analysis of the deposited data

How the results depend on the processing

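Myh7 over both diets kept its call in 22 of 23 alternative settings, with a difference between -0.69 and -0.51 and adjusted p-values of 0.01 to 0.0504; the exception left out Clock HFD replicate 2. Members called over both diets numbered 1, and 0 to 2 when 1 heart was left out; the 2 came without Clock SC replicate 4, where Nppb was called at 0.48. In the other comparisons 0 members were called, but 1, Nppb, was called for Clock against WT on the high-fat diet and for diet in WT hearts in fits on the 8 arrays compared, and for diet over both genotypes with array weights (-0.77, adjusted p = 0.0461). Leaving out 1 heart gave 0 to 1 for those 3. No member was called on chow, for diet in Clock hearts or for the interaction under any setting run. Signs that turned belonged to small values: diet in Clock hearts ranged over -0.22 to 0.055 for Myh7 and -0.44 to 0.16 for Nppa on leaving out a heart, and Nppb in Clock against WT hearts on chow ranged over -0.35 to 0.25 and was 0.052 after repeated quantile normalization; the cause was not tested. Acta1 on chow ranged over -1.34 to -0.94 (adjusted p 0.0538 to 0.489). Counts over all genes moved by over 1.5 times as follows. Over both diets 861 became 507 without WT SC replicates 2 and 4 together, an alternative chosen after seeing the data, which also gave 49 for chow, 141 for diet over both genotypes and 11 for diet in WT hearts. On the high-fat diet 422 became 241 without Clock HFD replicate 2 and 266 without replicate 3. On chow 109 became 59 with trended, robust eBayes, 38 on 8 arrays and 49 to 144 on leaving out a heart. Diet over both genotypes, 341, ranged over 218 to 329 on leaving out a heart and over 141 to 386 in all settings. Diet in Clock hearts, 20, became 37 with all probe sets that list a gene, 8 with trended eBayes, 53 with weights, 43 with quantile normalization, 7 on 8 arrays and 6 to 27 on leaving out a heart. Diet in WT hearts, 78, became 40 with trended eBayes, 15 on 8 arrays and 28 to 90 on leaving out a heart. The replicate numbers are not said to pair hearts. Deviations of same-numbered hearts of different groups correlated at -0.149 to 0.163 over 24 pairs, and those of differently numbered hearts at -0.203 to 0.209 over 72 pairs. These values cannot show whether hearts were paired in another way. With the replicate number as a block Myh7 over both diets was -0.61 with an adjusted p of 0.0358, no member's call changed, and diet called 12 genes in Clock and 41 in WT hearts. No filter for dim probes could be applied to centred values.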

Other observations

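The genes that flank the members were read beside them, and whether a region shared a signal was not tested. Clcn6, a chloride transporter gene on the far side of Nppa from Nppb, averaged -0.09 in Clock HFD, 0.06 in Clock SC, -0.18 in WT HFD and 0.05 in WT SC hearts on the centred log2 scale, and its diet difference in WT hearts was -0.24 ± 0.09 (SE, adjusted p = 0.316 by limma). The next gene on the other side of Nppb, 2510039O18Rik, averaged 0.11 in Clock HFD, 0.08 in Clock SC, -0.10 in WT HFD and -0.01 in WT SC hearts, a narrower range than that of Nppb. Plod1, the gene after it, averaged 0.09 in Clock HFD, -0.06 in Clock SC, -0.21 in WT HFD and -0.11 in WT SC hearts. Over the 16 hearts Clcn6, 2510039O18Rik and Plod1 correlated with Nppb at a Pearson r of 0.592, 0.545 and 0.515. Beside Acta1 on chromosome 8, Ccsap averaged -0.04 in Clock HFD, 0.03 in Clock SC, -0.05 in WT HFD and -0.01 in WT SC hearts, and Nup133 averaged 0.05 in Clock HFD, -0.05 in Clock SC, 0.05 in WT HFD and -0.06 in WT SC hearts. Further out, Rab4a averaged -0.41 in Clock HFD, -0.17 in Clock SC, 0.17 in WT HFD and 0.19 in WT SC hearts. Abcb10 averaged 0.09, 0.01, -0.18 and -0.19 in the same order. These 2 correlated with Acta1 at a Pearson r of 0.023 and 0.016. Around Myh7, Cmtm5, Myh6, Ngdn and Zfhx2 correlated with Myh7 at -0.316, -0.0443, -0.124 and 0.232.

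Endothelial markers were also higher in Clock hearts over both diets, with 4 of 10 called: Cldn5 by 0.74 ± 0.12, Esam by 0.25 ± 0.05, Tek by 0.24 ± 0.06 and Pecam1 by 0.16 ± 0.04. In that comparison 3.88% of all genes were called, and 9 of the 10 markers were above 0. For diet over both genotypes 1.54% of all genes were called. Of the 10 endothelial markers 2 were called there, with 2 above 0 and 8 below: Kdr fell by 0.24 ± 0.05 and Emcn by 0.21 ± 0.05. Of the 4 brown fat genes 1 was called there, Cidea, higher on the high-fat diet by 0.33 ± 0.06, with 2 above 0 and 2 below. Of the other marker lists, limma called 0 of 10 conduction, 0 of 10 smooth muscle, 0 of 8 macrophage, 0 of 7 adipocyte and 0 of 5 lung genes between the genotypes over both diets. In the same order 4, 4, 0, 1 and 0 had an unadjusted p under 0.05, against 16.5% of all genes. The red cell list had 1 gene and the brown fat list 4, and none of these was called between the genotypes over both diets, nor had an unadjusted p under 0.05. Car3, in the adipocyte list, was higher in Clock hearts on chow, by 0.40 ± 0.08. It was the 1 of the 7 adipocyte genes called there, with 4 above 0 and 3 below, against 0.491% of all genes called.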
